A study of Mus musculus with 12 samples.

Results

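The transcripts of 10 enzymes of bile acid synthesis were followed in mouse liver, chosen by gene symbol as the core steps of the textbook pathway, out of the 24532 genes with a row in the count table. Each of the 10 had 1 row and passed the filter on low counts, so all 10 were tested in every comparison. By role they were *Cyp7a1*, *Hsd3b7* and *Cyp8b1* of the classic route, *Cyp27a1* and *Cyp7b1* of the alternative route, *Amacr*, *Acox2* and *Scp2* of peroxisomal side-chain shortening, and *Slc27a5* and *Baat* of conjugation.

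Bile acids are made from cholesterol in hepatocytes. In the classic route CYP7A1, the rate-limiting enzyme, hydroxylates the sterol ring, HSD3B7 then oxidizes and isomerizes it, and CYP8B1 adds the hydroxyl group that separates cholic acid from chenodeoxycholic acid and the muricholic acids derived from it. In the alternative route CYP27A1 of mitochondria hydroxylates the side chain first and CYP7B1 hydroxylates the ring of the oxysterol formed. The side chain of both products is shortened in peroxisomes, and SLC27A5 and BAAT attach coenzyme A and then taurine or glycine. Bile acids returning to the liver repress *Cyp7a1* and *Cyp8b1* through FXR with SHP, and through FGF15 acting on FGFR4 with beta-klotho. *Cyp7a1* also follows the circadian clock, and *Cyp7b1* is more abundant in male than in female mouse liver.

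The livers came from male C57BL/6 mice, 10 to 12 weeks old at the start, in 4 groups of 3: WT and *Ahr* HKO, each after 5 weeks on the control liquid diet or on the Lieber-DeCarli diet with 5% ethanol by volume. *Ahr* HKO mice carried *Ahr* fl/fl and *Alb-Cre*, in which the albumin promoter drives Cre in hepatocytes, so that other liver cells keep the receptor. The WT mice were *Ahr* fl/fl littermates without Cre, so the floxed alleles were common to all groups. The 3 livers of a group were drawn at random from a larger group, and only RNA that passed a check of integrity was sequenced. Polyadenylated RNA was read on a stranded protocol. The libraries held 46306518 to 74336255 reads counted on genes. A list of 9 hepatocyte markers was detected in every library, and its summed level was 90108 to 140703 CPM (the count scaled to the library total after TMM adjustment). In whole liver, fewer cells of a type and less RNA per cell cannot be told apart.

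*Ahr*, the targeted gene, was read at 20.1, 16.6 and 18.3 CPM in the WT control livers and at 65.5, 41.3 and 63.3 CPM in the *Ahr* HKO control livers. On ethanol it was read at 30.5, 20.8 and 23.5 CPM in WT and at 41.8, 32.1 and 24.7 CPM in *Ahr* HKO. The count covers the whole gene and the floxed allele loses only the second exon, so this higher level does not check the labels. *Cyp1a2*, a target of the receptor, was at 398 to 617 CPM in WT and at 90.7 to 258 CPM in *Ahr* HKO control livers. It fell in *Ahr* HKO by 1.67 ± 0.40 on the log2 scale (SE, n = 3 livers a group, edgeR adjusted *P* = 0.0191). On ethanol it was at 992 to 1212 CPM in WT and at 629 to 684 CPM in *Ahr* HKO livers, lower in *Ahr* HKO (log2 FC -0.73, edgeR adjusted *P* = 0.0457) but above all WT control livers, so for the *Ahr* HKO ethanol libraries this is the weaker check.

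Promoter sequence was at hand for 5 of the 10 genes in the RefSeq table (GRCm38.p6), namely *Cyp27a1*, *Scp2*, *Hsd3b7*, *Cyp8b1* and *Acox2*, and was not analysed here for *Cyp7a1*, *Cyp7b1*, *Amacr*, *Slc27a5* and *Baat*. The 250 bases before the start are printed for *Cyp8b1* and *Hsd3b7*, whose transcripts fell in *Ahr* HKO livers on the control diet, and for *Cyp27a1*, which was not called there. The windows of *Cyp27a1* and *Scp2* and 1 of those of *Acox2* lie before a transcript start inside the gene. For *Cyp27a1*, whose first base is at 74713148 of chromosome 1, and for *Acox2* this start is near the first base, whereas for *Scp2* (108043830 to 108144971 of chromosome 4, reverse strand) the window is at 108118548 to 108118797, far inside the gene. All are written 5′ to 3′ on the strand of the gene. Capitals mark AAGGNCA, the element bound by NR5A2 as a monomer, and TTCNNNGAA, the element bound by STAT5, searched on both strands together with GCGTG, the core bound by the AhR. No matches overlapped.
*Cyp8b1*, chr9:121916306-121916555, reverse strand: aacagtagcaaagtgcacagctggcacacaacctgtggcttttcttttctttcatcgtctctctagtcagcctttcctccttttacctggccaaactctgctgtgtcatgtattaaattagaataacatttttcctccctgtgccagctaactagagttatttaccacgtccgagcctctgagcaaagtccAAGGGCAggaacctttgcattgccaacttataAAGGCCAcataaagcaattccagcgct
*Hsd3b7*, chr7:127800359-127800608, forward strand: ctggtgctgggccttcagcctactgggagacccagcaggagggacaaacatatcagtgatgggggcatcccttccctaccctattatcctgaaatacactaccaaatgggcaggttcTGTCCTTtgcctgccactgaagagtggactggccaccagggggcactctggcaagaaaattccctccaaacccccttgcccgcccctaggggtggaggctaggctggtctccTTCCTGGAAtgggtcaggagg
*Cyp27a1*, chr1:74713285-74713534, forward strand: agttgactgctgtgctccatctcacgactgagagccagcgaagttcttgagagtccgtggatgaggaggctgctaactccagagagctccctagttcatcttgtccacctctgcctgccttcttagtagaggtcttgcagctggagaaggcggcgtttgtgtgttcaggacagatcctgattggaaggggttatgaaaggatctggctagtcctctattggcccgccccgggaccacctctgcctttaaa
*Cyp8b1* held AAGGGCA at position -59 and AAGGCCA at position -27, counted from the transcript start that follows the window. *Hsd3b7* held 1 AAGGNCA on the reverse strand at -133 and 1 TTCNNNGAA at -21. The *Cyp27a1* window held none of the 3 motifs, nor did either of the 2 *Acox2* windows, and *Scp2* held 1 GCGTG on the reverse strand at -69. Over the 32851 promoter windows of the table, cut to the same 250 bases, AAGGNCA was present in 17.5%, GCGTG in 28.2% and TTCNNNGAA in 7.02%, so that letters like these are common. A match is a description of the sequence and not a bound site.

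Between genes, levels were compared per length as FPKM. In the WT control livers *Scp2*, which encodes both a lipid carrier and a peroxisomal thiolase, stood first at 1195 ± 71.6 FPKM (SD, n = 3). It was followed by *Hsd3b7* at 364 ± 50.5, *Slc27a5* at 335 ± 14.4, *Cyp27a1* at 279.6 ± 10.9 and *Cyp8b1* at 276 ± 37.4 FPKM. *Hsd3b7* and *Slc27a5* overlapped, and so did *Cyp27a1* and *Cyp8b1*, so their order was within the spread between livers. *Cyp7b1* at 131 ± 15.9, *Baat* at 92.2 ± 2.61, *Acox2* at 81.7 ± 5.85 and *Amacr* at 62.0 ± 3.50 FPKM came next. The lowest transcript, and the most variable relative to its mean, was *Cyp7a1*, at 25.5 ± 21.4 FPKM.

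The order was not the same in each group. *Scp2* kept the first and *Cyp7a1* the last place in all 4 groups. *Cyp7b1*, the sixth in WT control livers, was the ninth in WT ethanol livers at 23.1 ± 4.17 FPKM. *Cyp8b1*, the fifth in WT control livers, was the eighth in *Ahr* HKO control livers at 49.1 ± 23.7 FPKM, where its values overlapped those of *Acox2*. In *Ahr* HKO ethanol livers it was again the fifth, at 157 ± 50.1 FPKM.

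**Figure D1:**
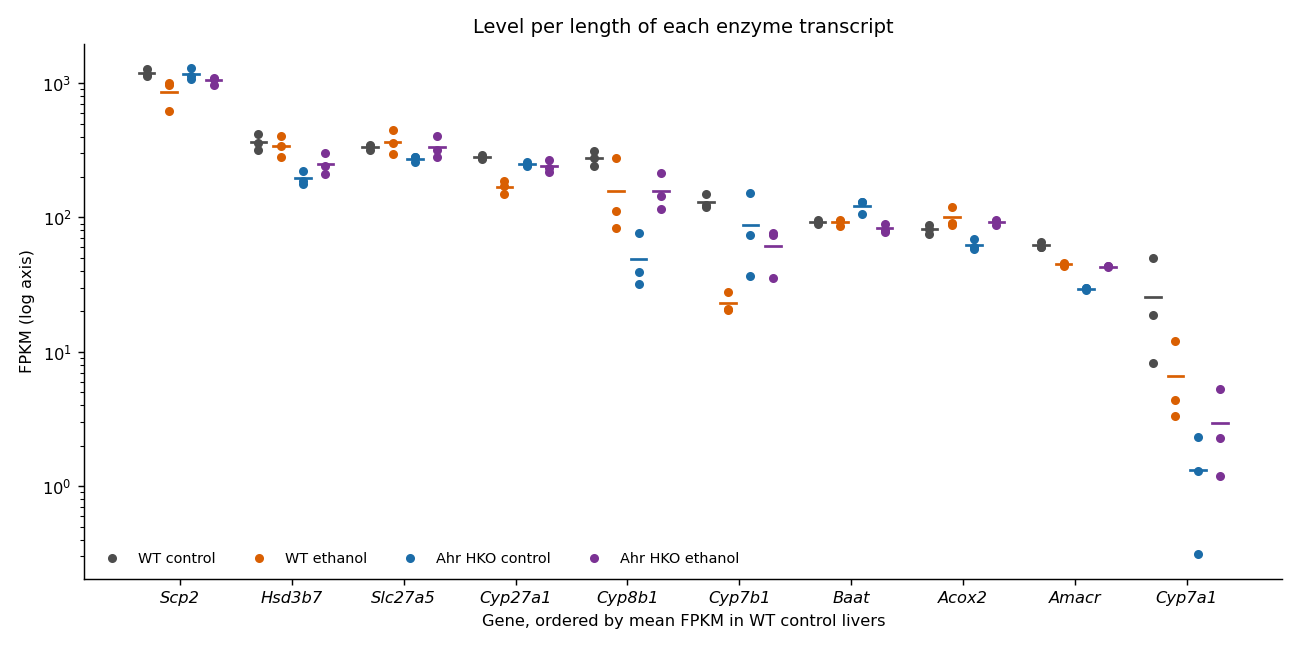
FPKM of the 10 transcripts on a log axis, 1 point per liver and a bar at each group mean, with genes ordered by their mean in WT control livers. *Cyp7a1* spans from 0.310 FPKM in an *Ahr* HKO control liver to 49.5 FPKM in a WT control liver, while the 12 livers of *Slc27a5* lie within a narrow band.

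Part of the pathway was lower on ethanol in WT livers. *Cyp7b1*, *Cyp27a1* and *Amacr* fell, by 6.37-fold, 1.85-fold and 1.55-fold, and none of the 10 rose. These 3 of 10 stand against a background of 4.48% of the 14038 tested genes called lower, 4.24% called higher and 8.72% called in either direction (edgeR quasi-likelihood test, Benjamini-Hochberg adjusted *P* value under 0.05). The WT ethanol livers were all below the WT control livers for 4 enzymes, *Scp2* added, and all above them for none, against 16.6% and 16.2% of tested genes. These counts are in CPM, and in FPKM *Acox2* was all above as well. The median log2 FC was -0.64 over the 10 enzymes and 0.01 over all tested genes. Without any one of the WT control livers *Cyp27a1* and *Amacr* lost the call at adjusted *P* values of 0.0505 to 0.0672 and 1 of the 10 remained, whereas *Cyp7b1* was called whichever of the 6 livers was left out. The fits without a WT control liver called 2.56% to 3.13% of tested genes. Without WT ethanol liver 1 there were 4 calls, with *Cyp8b1* added, against 7.2% of tested genes.

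On the control diet the genotypes differed in 5 enzymes, of which *Amacr* was also among the calls for ethanol in WT. *Cyp7a1*, *Cyp8b1*, *Amacr* and *Hsd3b7* were lower in *Ahr* HKO than in WT livers, by 20.2-fold, 5.81-fold, 2.14-fold and 1.90-fold, and *Baat* was 1.31-fold higher. The background was 29.7% of tested genes in either direction, 14.4% lower and 15.3% higher. The *Ahr* HKO livers were all below the WT livers for 7 enzymes (*Cyp27a1*, *Acox2* and *Slc27a5* added) and all above them for *Baat*, against 24.1% and 23.2% of tested genes. The median log2 FC was -0.52 over the 10 enzymes and -0.00443 over all tested genes. *Cyp7a1*, *Cyp8b1*, *Amacr* and *Hsd3b7* kept the call whichever of the 6 livers was left out, and *Cyp7b1* or *Acox2* was added without *Ahr* HKO control liver 2 or 3.

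On the ethanol diet none of the 10 was called between the genotypes by edgeR, against a background of 1.06% of tested genes in either direction. At an unadjusted *P* value under 0.05 there were 3, *Cyp7b1*, *Cyp27a1* and *Scp2*, all with higher values in *Ahr* HKO, against 21.0% of tested genes. The *Ahr* HKO livers were all above the WT livers for 4 enzymes, these 3 and *Amacr*, and all below them for none, against 13.7% and 14.2% of tested genes. In FPKM only *Cyp7b1* and *Cyp27a1* were all above, *Scp2* overlapped and *Amacr* was all below, so for *Amacr* the direction depended on the scale. The median log2 FC was 0.13 over the 10 enzymes and -0.00808 over all tested genes. DESeq2 called *Cyp7b1* and *Cyp27a1*, against 10.8% of tested genes in either direction. Without *Ahr* HKO ethanol liver 1, edgeR called *Cyp7b1* (adjusted *P* = 0.0161).

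In *Ahr* HKO livers ethanol was followed by higher levels of *Cyp8b1*, *Amacr* and *Acox2*, by 3.41-fold, 1.54-fold and 1.54-fold, and by a 1.40-fold lower level of *Baat*. The background was 31.2% of tested genes in either direction, 15% higher and 16.1% lower. The ethanol livers were all above the control livers for 4 enzymes, *Hsd3b7* added, and all below them for *Baat*, against 24.5% and 25.3% of tested genes. In FPKM *Slc27a5* took the place of *Hsd3b7*. The median log2 FC was 0.40 over the 10 enzymes and -0.02 over all tested genes. Leaving out *Ahr* HKO ethanol liver 3 left 2 of these calls, *Cyp8b1* and *Amacr*, with adjusted *P* values of 0.0537 for *Acox2* and 0.0877 for *Baat*. That fit called 18.4% of tested genes.

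The difference of the diet effect between the genotypes was tested with all 12 livers. *Cyp8b1*, *Cyp7b1*, *Amacr* and *Cyp27a1* passed, and for all 4 the effect was higher in *Ahr* HKO than in WT, against a background of 22.3% of tested genes in either direction, 11.2% in this one and 11.1% in the other. Without WT ethanol liver 1 the count was 7, with *Cyp7a1*, *Hsd3b7* and *Acox2* added, against 22% of tested genes. For *Cyp27a1* and *Cyp7b1* the diet effect in WT was a fall and that in *Ahr* HKO was not called. *Amacr* fell in WT and rose in *Ahr* HKO. *Cyp8b1* was not called in WT and rose in *Ahr* HKO. These comparisons share livers, since the WT control livers serve both the diet and the genotype comparison and the *Ahr* HKO control livers do so likewise, and they are therefore not independent of each other.

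**Figure D2:**
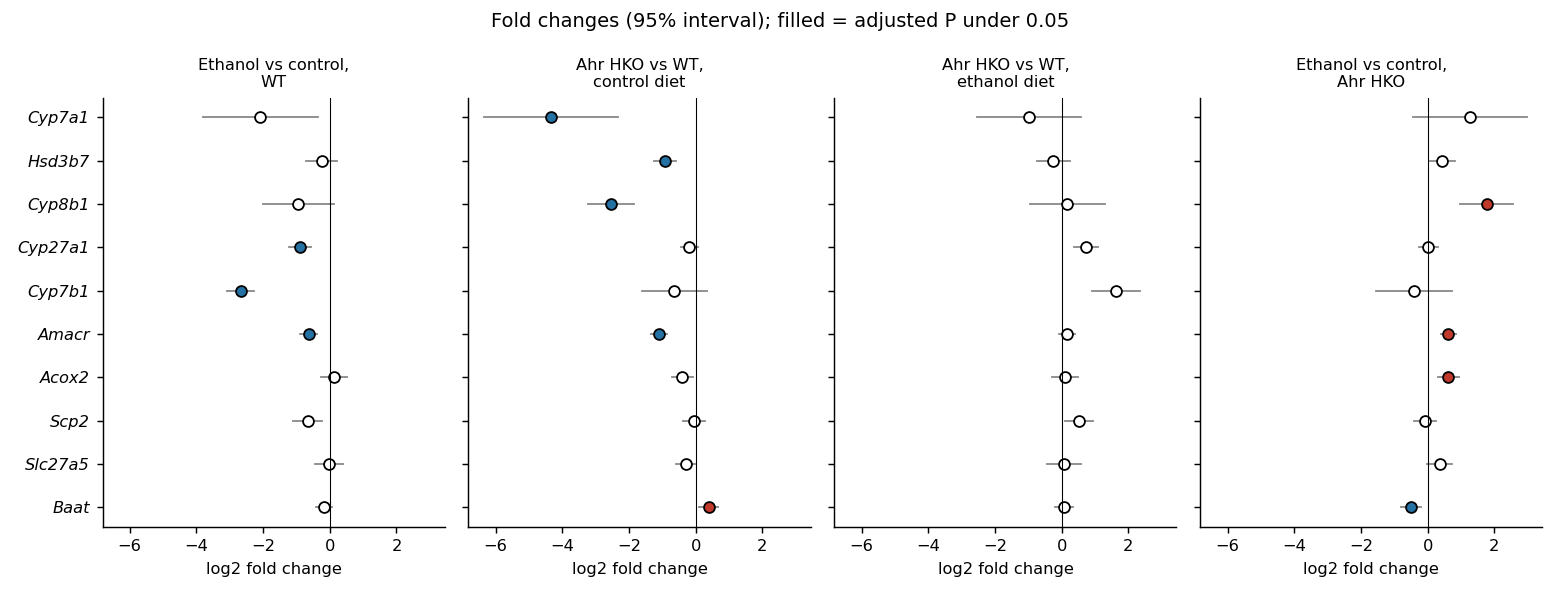
Log2 FC of the 10 enzymes with 95% intervals from edgeR in 4 comparisons of 3 against 3 livers, where filled points have an adjusted *P* value under 0.05 (blue lower, red higher). *Cyp7a1* at -4.33 between the genotypes on the control diet is the farthest from 0, and no point is filled between the genotypes on the ethanol diet.

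**Figure D3:**
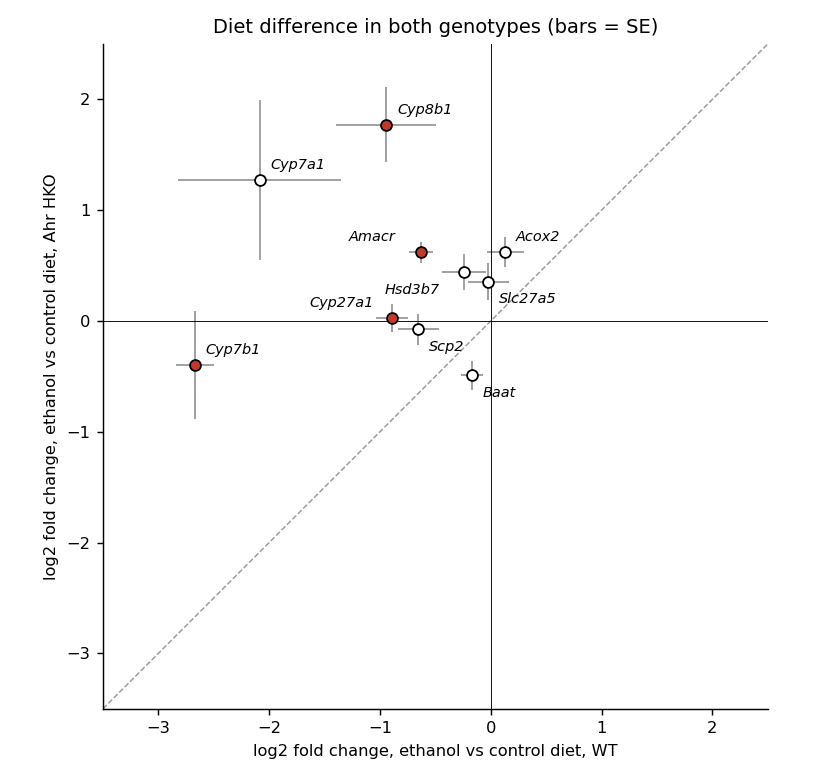
Log2 FC of ethanol against the control diet in WT (x axis) and in *Ahr* HKO (y axis) for each enzyme, with SE bars and the line of equality, where filled points passed the test of the difference. The points of *Cyp8b1*, *Cyp7b1*, *Amacr* and *Cyp27a1* are filled and lie above the line, and *Baat* lies below it.

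*Cyp7a1* varied more between livers of a group, relative to its mean, than any other member. Its level was 36.5, 83.4 and 217 CPM in WT control livers, 50.1, 16.2 and 13.1 CPM in WT ethanol livers, 5.62, 9.59 and 1.43 CPM in *Ahr* HKO control livers and 24.2, 5.32 and 10.8 CPM in *Ahr* HKO ethanol livers. Every *Ahr* HKO control liver was below every WT control liver, whereas WT ethanol liver 1 was above WT control liver 1. The values rest on 71 to 10617 reads per library, so counting error was small beside the spread between livers.

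Between the genotypes on the control diet the log2 FC of *Cyp7a1* was -4.33 ± 0.86 (SE, edgeR adjusted *P* = 0.0100), and it was -3.43 without WT control liver 3, the liver with the highest level, and -4.98 without *Ahr* HKO control liver 2. Ethanol against the control diet gave -2.09 ± 0.74 in WT (edgeR adjusted *P* = 0.126) and 1.27 ± 0.73 in *Ahr* HKO (edgeR adjusted *P* = 0.217). The difference of these effects, 3.36 ± 1.16, had an edgeR adjusted *P* of 0.0587, and passed in 4 of 12 leave-one-out fits, those without WT control liver 1, WT ethanol liver 1, *Ahr* HKO control liver 2 or *Ahr* HKO ethanol liver 2 (adjusted *P* from 0.0320 to 0.0489), and in DESeq2 (adjusted *P* = 0.0321).

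*Cyp8b1*, which sets the share of cholic acid, was at 646, 576 and 491 CPM in WT control livers and at 79.8, 146 and 68.6 CPM in *Ahr* HKO control livers. The groups were far apart, with a log2 FC of -2.54 ± 0.30 (SE, edgeR adjusted *P* = 0.00179). On ethanol it was at 542, 144 and 206 CPM in WT livers and at 450.2, 304 and 252 CPM in *Ahr* HKO livers. WT ethanol liver 1 was within the range of the WT control livers and the other two were below it. The diet effect in WT was -0.94 ± 0.45 (edgeR adjusted *P* = 0.238), and -1.71 without that liver (edgeR adjusted *P* = 0.0119). In *Ahr* HKO all 3 ethanol livers were above all 3 control livers, with a log2 FC of 1.77 ± 0.34 (edgeR adjusted *P* = 0.00973), and the difference between the genotypes was 2.71 ± 0.63 (edgeR adjusted *P* = 0.0123).

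*Hsd3b7*, which acts after *Cyp7a1*, was at 797, 701 and 603 CPM in WT control, 740.3, 451 and 585 CPM in WT ethanol, 338, 396 and 369 CPM in *Ahr* HKO control and 595, 412 and 492 CPM in *Ahr* HKO ethanol livers. It fell with the genotype on the control diet, where the groups did not overlap (log2 FC -0.93 ± 0.14, edgeR adjusted *P* = 0.00397). Its diet effect was -0.24 ± 0.20 in WT (edgeR adjusted *P* = 0.490) and 0.44 ± 0.16 in *Ahr* HKO (edgeR adjusted *P* = 0.0713). The latter passed without *Ahr* HKO ethanol liver 2 (edgeR adjusted *P* = 0.0466).

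**Figure D4:**
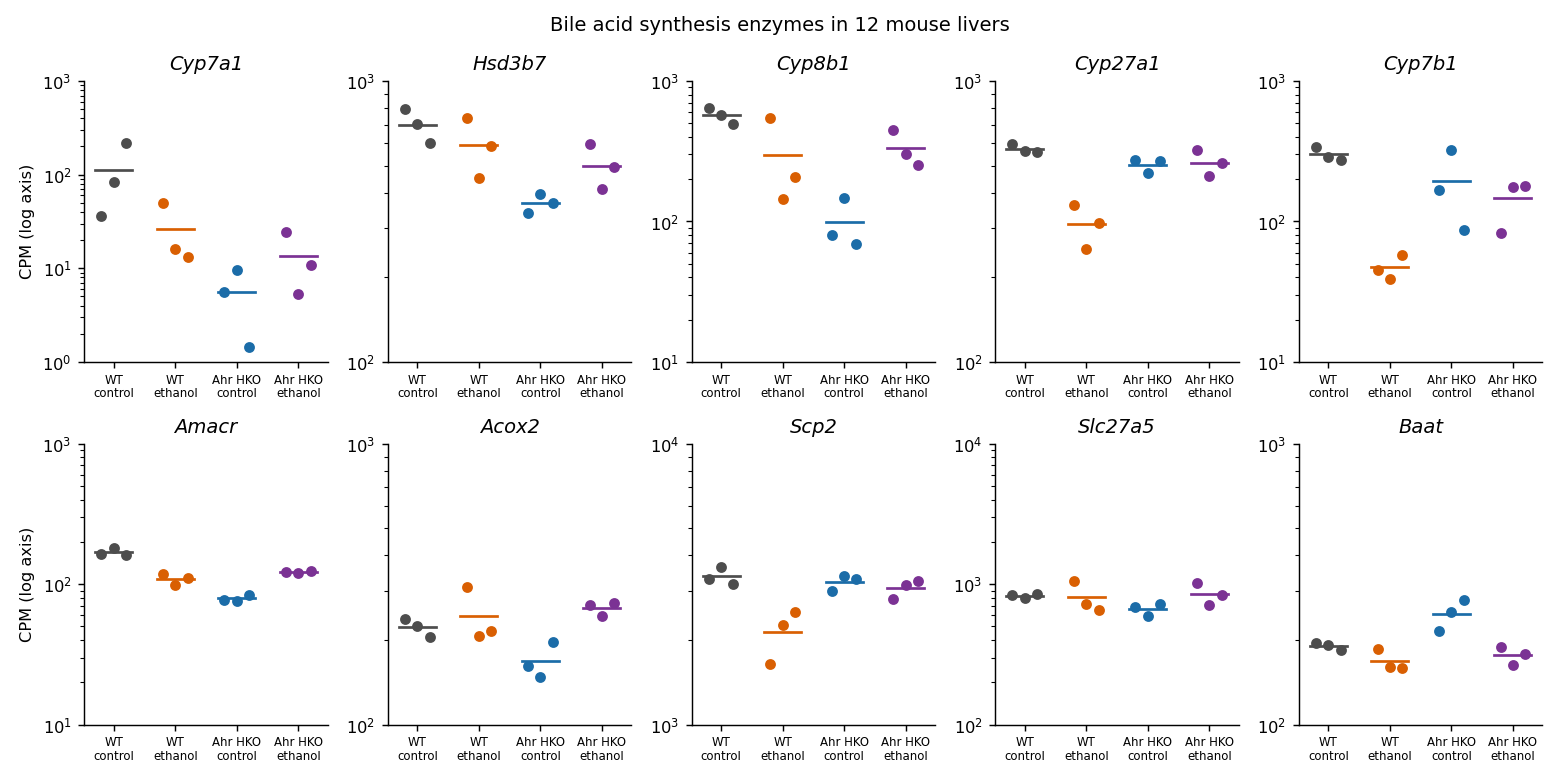
CPM of each enzyme in 12 livers on log axes, with 1 point per liver and a bar at the group mean. *Cyp7b1* and *Cyp27a1* are lowest in the WT ethanol livers, at 39.2 to 57.3 and 253 to 362 CPM, and *Scp2* and *Baat* have their lowest means there too. *Cyp7a1*, *Cyp8b1*, *Hsd3b7*, *Amacr*, *Acox2* and *Slc27a5* have their lowest means in the *Ahr* HKO control livers.

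*Cyp7b1* and *Cyp27a1* had their lowest means in the WT ethanol livers, as did *Scp2*, so this was not particular to the alternative route. *Baat* did so in CPM, but in FPKM its mean was lowest in *Ahr* HKO ethanol livers, at 82.9 against 91.8 in WT ethanol livers. *Cyp7b1* was at 341, 290 and 272 CPM in WT control livers and at 45.2, 39.2 and 57.3 CPM in WT ethanol livers, a log2 FC of -2.67 ± 0.17 (SE, edgeR adjusted *P* = 0.00075). In *Ahr* HKO it was at 168, 324 and 87.2 CPM on the control diet and at 83.0, 177 and 179 CPM on ethanol, and these groups overlapped (log2 FC -0.40 ± 0.49, edgeR adjusted *P* = 0.562). The lowest *Ahr* HKO ethanol liver was above the highest WT ethanol liver, with a log2 FC of 1.63 ± 0.31 (edgeR adjusted *P* = 0.0620). The effect of the diet differed between the genotypes by 2.27 ± 0.58 on the log2 scale (edgeR adjusted *P* = 0.0177).

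The spread of *Cyp7b1* in the *Ahr* HKO control group came from a liver near the WT level and a liver far under it. Between the genotypes on the control diet its log2 FC was -0.64 ± 0.41 (edgeR adjusted *P* = 0.285), and -1.24 without *Ahr* HKO control liver 2 (edgeR adjusted *P* = 0.0266).

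*Cyp27a1*, the first enzyme of the alternative route, was at 596, 565 and 560 CPM in WT control and 362, 253 and 313 CPM in WT ethanol livers. In *Ahr* HKO it was at 523, 469 and 518 CPM on the control diet and at 566, 458 and 512 CPM on ethanol. It fell with ethanol in WT (log2 FC -0.89 ± 0.15, edgeR adjusted *P* = 0.0153), and its diet effect in *Ahr* HKO was 0.02 ± 0.13 with a 95% interval from -0.27 to 0.32. The effects differed by 0.92 ± 0.19 (edgeR adjusted *P* = 0.00733). Between the genotypes on ethanol the groups did not overlap, with a log2 FC of 0.73 ± 0.16 (edgeR adjusted *P* = 0.0787).

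Of the peroxisomal enzymes *Amacr*, the racemase that turns the side chain into the form that the oxidase accepts, differed in each comparison but that of the genotypes on ethanol. It was at 163, 182 and 162 CPM in WT control, 119, 99.1 and 109.8 CPM in WT ethanol, 77.4, 76.1 and 83.9 CPM in *Ahr* HKO control and 121.1, 119.98 and 124 CPM in *Ahr* HKO ethanol livers. The WT control livers were above all others and the *Ahr* HKO control livers below all others. Its log2 FC was -0.63 ± 0.11 for the diet in WT (edgeR adjusted *P* = 0.0160), -1.10 ± 0.10 for the genotype on the control diet (edgeR adjusted *P* = 0.00103) and 0.62 ± 0.09 for the diet in *Ahr* HKO (edgeR adjusted *P* = 0.00479). Between the genotypes on ethanol it was 0.16 ± 0.10 (edgeR adjusted *P* = 0.412), with ranges less than 1 CPM apart, and in FPKM the order was the opposite, at 42.8 to 43.3 in *Ahr* HKO and 43.7 to 46.1 in WT. The diet effects of the genotypes differed by 1.25 ± 0.13 (edgeR adjusted *P* = 0.000314).

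*Acox2*, the branched-chain oxidase of this step, was at 238, 225 and 205 CPM in WT control, 309, 207 and 215 CPM in WT ethanol, 162, 148 and 196 CPM in *Ahr* HKO control and 266, 244 and 271 CPM in *Ahr* HKO ethanol livers. It rose with ethanol in *Ahr* HKO (log2 FC 0.62 ± 0.13, edgeR adjusted *P* = 0.0138). Between the genotypes on the control diet its log2 FC was -0.40 ± 0.13, with groups that did not overlap and an edgeR adjusted *P* of 0.0609. This difference passed without *Ahr* HKO control liver 3 (edgeR adjusted *P* = 0.0218), under upper-quartile scaling (adjusted *P* = 0.0285) and in DESeq2 (adjusted *P* = 0.0316).

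*Scp2*, the most abundant of the 10, was at 3307, 3638 and 3175 CPM in WT control and 1644, 2270 and 2511 CPM in WT ethanol livers. The groups did not overlap, yet the log2 FC of -0.66 ± 0.19 had an edgeR adjusted *P* of 0.0719, while DESeq2 gave an adjusted *P* of 0.00353. In *Ahr* HKO livers *Scp2* was at 2985, 3388 and 3311 CPM on the control diet and 2808, 3133 and 3244 CPM on ethanol, which overlapped. The difference of the diet effects, 0.58 ± 0.23, had an edgeR adjusted *P* of 0.0866, and of 0.0452 without WT ethanol liver 3.

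The group means of the conjugation enzymes spanned the least of the 10, 0.35 on the log2 scale for *Slc27a5* and 0.55 for *Baat*. *Slc27a5*, the bile acid coenzyme A ligase, was at 796 to 849 CPM in WT control, 656 to 1051 CPM in WT ethanol, 596 to 724 CPM in *Ahr* HKO control and 711 to 1020 CPM in *Ahr* HKO ethanol livers. Its control groups did not overlap, with a log2 FC of -0.31 ± 0.12 (SE, edgeR adjusted *P* = 0.0999), which passed under upper-quartile scaling (adjusted *P* = 0.0470) and in DESeq2 (adjusted *P* = 0.0406). *Baat*, the acyltransferase that follows it, was at 195, 191 and 184 CPM in WT control, 186, 160.5 and 159.6 CPM in WT ethanol, 216, 251 and 278 CPM in *Ahr* HKO control and 189, 164 and 178 CPM in *Ahr* HKO ethanol livers. It was the one member whose highest values were in the *Ahr* HKO control livers. Its log2 FC was 0.39 ± 0.12 for the genotype on the control diet (edgeR adjusted *P* = 0.0477) and -0.49 ± 0.13 for the diet in *Ahr* HKO (edgeR adjusted *P* = 0.0284). The first call was lost in 5 of 6 leave-one-out fits (adjusted *P* up to 0.138, with the call kept without *Ahr* HKO control liver 1) and under upper-quartile scaling (adjusted *P* = 0.0731). The second call was lost without *Ahr* HKO control liver 2 or 3 or *Ahr* HKO ethanol liver 2 or 3 (adjusted *P* from 0.0627 to 0.0916).

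The log2 ratio of *Cyp7a1* to *Cyp7b1* in FPKM compared a ring hydroxylase of each route, leaving out *Cyp27a1*, the first alternative-route enzyme. It was -4.17, -2.74 and -1.27 in WT control, -0.80, -2.22 and -3.07 in WT ethanol, -5.85, -6.03 and -6.89 in *Ahr* HKO control and -2.73, -6.01 and -5.00 in *Ahr* HKO ethanol livers. On the control diet all *Ahr* HKO livers were below all WT livers, with a difference of the means of -3.53 (two-sided exact permutation test, *P* = 0.1, the smallest value that 3 against 3 livers allow, and 0.4 after adjustment over the 8 tests of both ratios). The other comparisons of this ratio had exact permutation *P* values of 0.2 to 0.5.

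The log2 ratio of *Cyp8b1* to *Cyp7a1* in FPKM was 5.24, 3.88 and 2.27 in WT control, 4.53, 4.25 and 5.07 in WT ethanol, 4.93, 5.03 and 6.69 in *Ahr* HKO control and 5.32, 6.94 and 5.64 in *Ahr* HKO ethanol livers. On ethanol it was higher in all *Ahr* HKO than in all WT livers, by 1.35 in the mean (exact permutation test, *P* = 0.1). In the other comparisons *P* was 0.3 or 0.5 by the exact permutation test, so this ratio did not separate the groups, although both genes were lower in *Ahr* HKO control livers.

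The patterns closest to those of the 3 members whose group means spanned more than 1.5 on the log2 scale were looked up among all tested genes with a mean of at least 50 counts, by the root mean square difference of centred log2 CPM over the 12 livers. For *Cyp8b1* they were *Pde9a* at 0.39, *Tgfbr3l* at 0.43, *D930015E06Rik* at 0.43, *Tlr5* at 0.44 and *Hsbp1l1* at 0.46. For *Cyp7b1* they were *Cyp2u1* at 0.34, *Lama3* at 0.39, *Mup20* at 0.45, *Mup21* at 0.46 and *F11* at 0.48. *Cyp7a1* had no close neighbour, with *Rfx4* at 1.06 as the nearest and *Cyp8b1* as the third at 1.16. Reads of *Mup20* and *Mup21* can be shared with near-identical genes of their family, so their values are uncertain.

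*Cyp2u1*, *Mup20* and *Mup21* stood on a list of 15 genes known to be higher in male than in female mouse liver. Of that list 13 fell with ethanol in WT and none rose, 9 fell with the genotype on the control diet, 4 were higher in *Ahr* HKO than in WT on ethanol, and 4 rose and 1 fell with ethanol in *Ahr* HKO. The median log2 FC of the list in these comparisons was -2.69, -1.02, 2.06 and 0.25. Of all tested genes 8.72%, 29.7%, 1.06% and 31.2% were called in them in either direction, the background for this and all later lists. *Cyp2u1* was at 18.2 to 21.9 CPM in WT control, 2.29 to 4.71 CPM in WT ethanol, 5.61 to 13.3 CPM in *Ahr* HKO control and 7.20 to 11.8 CPM in *Ahr* HKO ethanol livers. *Hsd3b5*, a male-specific steroid enzyme, was at 241 to 256 CPM in WT control livers and at 0 to 0.605 CPM in WT ethanol livers.

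Of 16 genes known to be higher in female mouse liver, 11 were tested, and 7 of these rose with ethanol in WT, 1 was higher in *Ahr* HKO on the control diet, 2 were lower in *Ahr* HKO on ethanol and 2 rose with ethanol in *Ahr* HKO. *Cyp2a22* was at 0.175 to 0.470 CPM in WT control, 111 to 231 CPM in WT ethanol, 2.47 to 4.96 CPM in *Ahr* HKO control and 5.51 to 21.9 CPM in *Ahr* HKO ethanol livers. *Cyp2b9*, at 0 in the 3 WT control livers, was at 353 to 793 CPM in WT ethanol livers. With ethanol in WT *Cyp7b1* fell, as did 13 of the 15 male-biased genes, and the part of sex-biased genes in its fall was not tested. In the other pairs of groups *Cyp7b1* was not called by edgeR, while genes of both lists were. The nearest patterns were picked for likeness in these same livers, so their likeness is no separate evidence. *Cyp2a22* and *Cyp2b9* have near-identical family members as well.

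The clock genes were read because *Cyp7a1* and *Cyp8b1* vary with the time of day, and the hour at which the livers were taken is not given in the sources used here. Of 15 clock genes 5 were lower in *Ahr* HKO than in WT on the control diet and 9 rose with ethanol in *Ahr* HKO, while 2 rose with ethanol in WT and none was called between the genotypes on ethanol (5 at an unadjusted *P* value under 0.05). At that unadjusted threshold 21.0% of all tested genes passed between the genotypes on ethanol. The median log2 FC of the list was -0.36 for the genotype on the control diet and 0.98 for ethanol in *Ahr* HKO. *Dbp*, a clock output factor, was at 83.4, 96.1 and 121 CPM in WT control, 37.2, 113 and 74.7 CPM in WT ethanol, 41.1, 12.5 and 17.5 CPM in *Ahr* HKO control and 33.9, 179 and 141 CPM in *Ahr* HKO ethanol livers. Its log2 FC was -2.08 between the genotypes on the control diet (edgeR adjusted *P* = 0.0111) and 2.32 for ethanol in *Ahr* HKO (edgeR adjusted *P* = 0.0378). *Arntl*, whose phase is opposite to that of *Dbp*, was at 3.29 to 6.27 CPM in WT control and 4.18 to 11.1 CPM in *Ahr* HKO control livers, which overlapped. The part of the clock genes in the levels of *Cyp7a1* and *Cyp8b1* was not tested.

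Of 18 other tested enzymes of bile acid synthesis, 2 rose and 1 fell with ethanol in WT, 2 were higher and 6 lower in *Ahr* HKO on the control diet, none was called between the genotypes on ethanol (2 at an unadjusted *P* value under 0.05), and 6 rose and 1 fell with ethanol in *Ahr* HKO. Their median log2 FC was 0.27, -0.27, 0.09 and 0.62 in this order, and 8.72%, 29.7%, 1.06% and 31.2% of all tested genes were called. At the unadjusted threshold between the genotypes on ethanol 21.0% of all tested genes passed. *Cyp39a1*, the oxysterol hydroxylase that acts on products of the brain enzyme CYP46A1, was at 9.82, 13.9 and 17.1 CPM in WT control and 51.6, 37.5 and 51.4 CPM in WT ethanol livers (log2 FC 1.79, edgeR adjusted *P* = 0.00591). *Acnat2*, a peroxisomal acyltransferase, rose with ethanol in WT and fell with it in *Ahr* HKO. It was at 10.5, 18.0 and 18.0 CPM in WT control, 90.4, 60.02 and 56.1 CPM in WT ethanol, 84.3, 148 and 144 CPM in *Ahr* HKO control and 58.1, 34.4 and 56.3 CPM in *Ahr* HKO ethanol livers.

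*Abcd3*, the peroxisomal transporter through which the side-chain substrates pass, was at 424 to 500.4 CPM in WT control and 229 to 280.0 CPM in *Ahr* HKO control livers (log2 FC -0.90, edgeR adjusted *P* = 0.00317), and rose with ethanol in *Ahr* HKO by 0.66 (edgeR adjusted *P* = 0.0124). *Cyp2c70*, the mouse enzyme that makes muricholic acids, was at 252 to 271 CPM in WT control and 411 to 671 CPM in *Ahr* HKO control livers (log2 FC 0.93, edgeR adjusted *P* = 0.0143), a call lost without WT control liver 2 (edgeR adjusted *P* = 0.0552).

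Among 20 tested regulators, 4 rose and 1 fell with ethanol in WT, 5 were higher and 5 lower in *Ahr* HKO on the control diet, none was called between the genotypes on ethanol (10 at an unadjusted *P* value under 0.05), and 4 rose and 3 fell with ethanol in *Ahr* HKO. Their median log2 FC was 0.10, 0.06, 0.14 and 0.15 in this order, and 8.72%, 29.7%, 1.06% and 31.2% of all tested genes were called. At the unadjusted threshold between the genotypes on ethanol 21.0% of all tested genes passed. *Nr0b2*, which encodes the repressor SHP, was at 43.0, 12.5 and 9.40 CPM in WT control, 30.7, 40.9 and 62.2 CPM in WT ethanol, 43.8, 16.5 and 29.7 CPM in *Ahr* HKO control and 66.6, 80.8 and 79.8 CPM in *Ahr* HKO ethanol livers. It rose with ethanol in *Ahr* HKO (log2 FC 1.34, edgeR adjusted *P* = 0.0200), where *Cyp8b1* rose as well, and the call was lost without *Ahr* HKO ethanol liver 2 or 3 (adjusted *P* of 0.0541 and 0.0584).

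*Nr1h4*, which encodes FXR, was at 76.4 to 100.2 CPM in WT control and 67.0 to 104 CPM in *Ahr* HKO control livers, which overlapped. On ethanol it was at 65.2 to 82.5 CPM in WT and 46.8 to 62.9 CPM in *Ahr* HKO livers. It fell with ethanol in *Ahr* HKO (log2 FC -0.61, edgeR adjusted *P* = 0.0443), where *Cyp8b1* rose. *Klb*, the beta-klotho co-receptor of FGF15 signalling, was at 38.5, 33.3 and 23.9 CPM in WT control and 10.4, 15.5 and 11.6 CPM in *Ahr* HKO control livers (log2 FC -1.35, edgeR adjusted *P* = 0.00452). *Hnf4a*, an activator of *Cyp7a1* and *Cyp8b1*, was higher in those *Ahr* HKO livers, at 1003 to 1236 CPM against 529.5 to 626 CPM (log2 FC 0.97, edgeR adjusted *P* = 0.00313). *Mafg*, a repressor of *Cyp8b1*, was lower there, at 14.04 to 21.3 CPM against 31.0 to 37.0 CPM (log2 FC -0.96, edgeR adjusted *P* = 0.00637). *Nfil3*, a repressor of clock outputs, was at 9.06 to 11.3 CPM in WT control, 25.6 to 29.0 CPM in WT ethanol and 22.7 to 37.0 CPM in *Ahr* HKO control livers, and was called higher in both comparisons with WT control livers. These are transcript levels, and the part of any regulator, *Nr0b2* included, in the levels of the enzymes was not tested.

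Of 13 tested transporters, 4 rose with ethanol in WT, 6 were lower in *Ahr* HKO on the control diet, none was called between the genotypes on ethanol (6 at an unadjusted *P* value under 0.05) and 8 rose with ethanol in *Ahr* HKO. Their median log2 FC was 0.19, -0.45, -0.24 and 0.66 in this order. At the unadjusted threshold between the genotypes on ethanol 21.0% of all tested genes passed. *Abcc4*, a basolateral efflux pump, was at 1.64 to 2.29 CPM in WT control and 49.6 to 105 CPM in WT ethanol livers (log2 FC 5.36, edgeR adjusted *P* = 0.000534). *Slc10a1*, the main bile acid uptake carrier NTCP, was at 678 to 713 CPM in WT control, 262 to 406 CPM in *Ahr* HKO control and 548 to 867 CPM in *Ahr* HKO ethanol livers. It was lower in *Ahr* HKO on the control diet (log2 FC -1.03, edgeR adjusted *P* = 0.00530) and rose there with ethanol (log2 FC 0.97, edgeR adjusted *P* = 0.0209). *Abcg8*, of the sterol exporter with *Abcg5*, did the same, at 113 to 165 CPM, 35.1 to 50.1 CPM and 99.6 to 120 CPM.

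**Figure D5:**
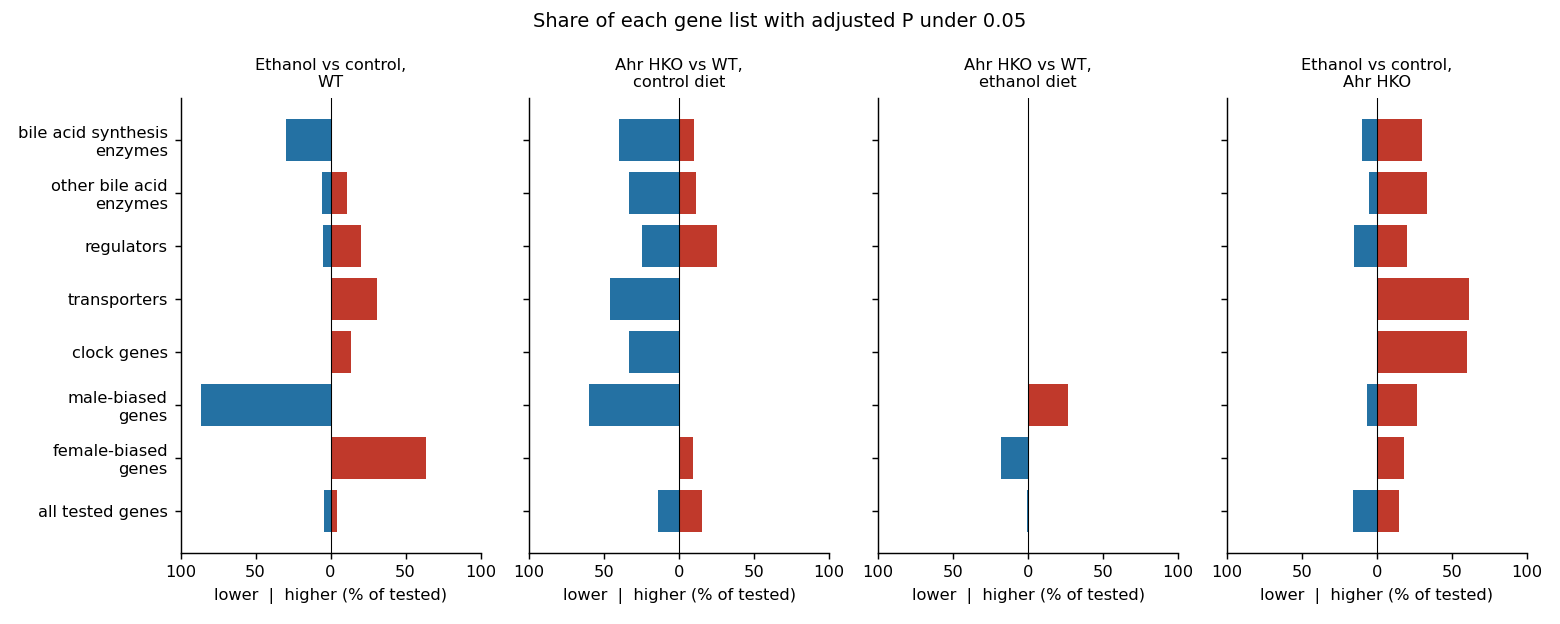
Share of the tested genes of each list with an adjusted *P* value under 0.05, lower to the left in blue and higher to the right in red, in 4 comparisons. For the genotype on the control diet, all or most calls are to the left for the 10 synthesis enzymes, the other enzymes, the transporters, the clock genes and the male-biased genes. For ethanol in *Ahr* HKO all or most calls of these lists are to the right. The bottom bar gives all 14038 tested genes.

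Other cell types were read by 10 markers each. All 10 Kupffer cell markers fell with ethanol in *Ahr* HKO, the comparison in which *Cyp8b1*, *Amacr* and *Acox2* rose. Their summed level was 459 to 595 CPM in WT control, 416 to 1017 CPM in WT ethanol, 411 to 1130 CPM in *Ahr* HKO control and 265 to 329 CPM in *Ahr* HKO ethanol livers, and none was at 0 in all libraries of a group. No Kupffer cell marker was called by edgeR in the other 3 pairs of groups. Between the genotypes on ethanol, however, 9 of 10 were lower in *Ahr* HKO at an unadjusted *P* value under 0.05 (median log2 FC -0.93). At that threshold 21.0% of all tested genes passed in either direction. Of the 10 markers 6 passed the test of the difference of the diet effect. Of the endothelial markers 4 fell with ethanol in *Ahr* HKO, and they summed to 287 to 588 CPM over the 12 livers. The stellate cell markers summed to 288 to 380 CPM in WT control, 407 to 462 CPM in WT ethanol, 271 to 294 CPM in *Ahr* HKO control and 316 to 371 CPM in *Ahr* HKO ethanol livers. Of these markers 3 rose with ethanol in WT, 3 rose and 1 fell with it in *Ahr* HKO, and 2 were lower in *Ahr* HKO on the control diet. The cholangiocyte markers summed to 67.8 to 155 CPM in WT control and 57.2 to 492 CPM in *Ahr* HKO control livers, the highest in *Ahr* HKO control liver 1. Each of these sums is small beside that of the hepatocyte markers, and their part in the enzyme levels was not tested.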

How the data were processed

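The study compared 12 livers in 4 groups of 3, grouped by the genotype and treatment in the labels, and no label names a batch or date. The authors deposited raw read counts per gene, FPKM (their counts scaled by gene length and library size) and TPM for 24532 genes. Per the submitters' processing notes, FastQC 0.11.7, Trimmomatic 0.38, HISAT2 2.1.0, Bowtie2 2.3.4.1 and StringTie 1.3.4d were run on mm10, and the assignment of reads that fit several near-identical genes is not given in the sources used here. The deposited TPM values entered no result, and each library's sum was 924962 to 987569.

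DEGs were tested here with edgeR 4.0.16 in R 4.3.3 by the quasi-likelihood method, on 14038 genes kept by filterByExpr, with TMM factors of 0.925 to 1.16, *P* values adjusted by Benjamini-Hochberg over these genes and a threshold of 0.05. A comparison of a pair of groups used the 6 libraries of that pair, and the interaction of genotype and diet with all 12. SE values are of the edgeR coefficients. The ratios were tested with the exact permutation test of scipy 1.17.1, and figures drawn with matplotlib 3.10.9. A floor of 3 counts was 0.0425 to 0.0676 CPM, and it covers counting error only. None of the 66 library pairs was identical, and replicates differed by far more than sampling noise.

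The alternatives were DESeq2 1.42.0, upper-quartile scaling, other filters (none, or at least 10 counts in every library), limma 3.58.1 on log2(FPKM + 0.1) and on log2(FPKM + 1), the latter also quantile-normalized, a joint fit of the 12 libraries, a replicate block, other thresholds, and leaving out each liver in turn. The scripts were tested on simulated data. Gene positions came from RefSeq GRCm38.p6, in which 10 of 10 members matched by Entrez identifier. Named genes were the 10 members, up to 4 called genes of each list of enzymes, regulators and transporters with the largest FC and a mean of at least 50 counts, up to 3 of the clock and sex-biased lists, and the 5 nearest patterns. *Nr1h4* and *Arntl* were chosen after values were seen. The members and lists were chosen with earlier results of these data known. Of the lists, *Ch25h*, *Fgf15*, *Slc51a*, *Sult3a1*, *Sult2a1*, *A1bg*, *Cyp3a41a*, *Cyp3a41b*, *Cftr* and *Cldn4* had too few counts to be tested.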

Additional observations from a re-analysis of the deposited data

Results flagged for a closer look

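The effect of ethanol differed between the genotypes, by the interaction test of edgeR with all 12 livers at an adjusted *P* value under 0.05, for 4 of the 10 enzymes and 16 genes of the lists of other enzymes, regulators and transporters. These 3 lists held 18, 20 and 13 tested genes in this order, and 22.3% of all tested genes passed. The values are the log2 FC of ethanol in *Ahr* HKO minus that in WT. Among the 10 enzymes the difference was 2.71 for *Cyp8b1*, 2.27 for *Cyp7b1*, 1.25 for *Amacr* and 0.92 for *Cyp27a1*. Of the other enzymes it was 2.33 for *Sult2a8*, which sulfates bile acids, 1.55 for *Cyp46a1*, 0.82 for *Akr1c6*, 0.79 for *Abcd3*, 0.73 for *Slc27a2* and -3.49 for *Acnat2*. Of the regulators it was 2.41 for *Bhlhe41*, 1.32 for *Mafg*, 0.93 for *Ppargc1a* and -0.94 for *Nfil3*. Of the transporters it was 5.58 for *Slco1a1*, 1.24 for *Abcg8*, 0.88 for *Slc10a1*, 0.63 for *Abcg5*, 0.49 for *Slco1b2* and -2.99 for *Abcc4*. *Slco1a1*, an uptake carrier that is also male-biased, was at 251 to 452 CPM in WT control, 0.680 to 22.9 CPM in WT ethanol, 142 to 230.3 CPM in *Ahr* HKO control and 153 to 254 CPM in *Ahr* HKO ethanol livers. *Akr1c6*, *Slc27a2* and *Slco1b2* are outside the rule for named genes and were chosen after their values were seen. The difference also passed for 5 of 15 clock genes, 13 of 15 male-biased genes (*Slco1a1* among them), 3 of 11 female-biased genes and 6 of 10 Kupffer cell markers. No explanation of these differences was tested.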

How the results depend on the processing

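Of the counts of called enzymes and the ratios, 139 values under an alternative stayed the same, 15 moved and 2 changed sign. A count was the same if within 1.5-fold of the main count, or at 0 where that was 0. A ratio was the same if its difference between groups kept its sign, whatever its *P* value. Of the values of single genes and the other counts, 1620 stayed the same, 135 moved, 69 lost and 34 gained the call and 27 changed sign. For a single gene the same means direction and side of the threshold. The count of called enzymes changed as follows. Percentages in brackets are the share of all tested genes called in the same fits, which was not computed at the looser and unadjusted thresholds. Ethanol in WT gave 3, from 1 to 4 when a liver was left out (2.56% to 7.2%), and 6 at the looser threshold (adjusted *P* below 0.25, FC over 1.5). The genotype on the control diet gave 5, from 4 to 5 when a liver was left out (18.7% to 26.6%), 7 with DESeq2 (34.6%), 6 with upper-quartile scaling (30.1%), 4 with no filter on low counts (22.5%), and 3 at the unadjusted threshold (*P* below 0.05, FC over 2). The genotype on ethanol gave 0, from 0 to 1 when a liver was left out (0.0712% to 1.37%), 2 with DESeq2 (10.8%), 1 with all 12 libraries in a single fit (4.1%), 2 at the looser threshold and 1 at the unadjusted one. Ethanol in *Ahr* HKO gave 4, from 2 to 4 when a liver was left out (18.4% to 27%), and 1 at the unadjusted threshold. The interaction gave 4, from 4 to 7 when a liver was left out (16.1% to 22%), and 7 with DESeq2 (28.3%). The log2 ratio of *Cyp7a1* to *Cyp7b1* for ethanol in WT was -0.023 to 1.42 and that of *Cyp8b1* to *Cyp7a1* for ethanol in *Ahr* HKO -0.071 to 0.99 when a liver was left out.

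No called log2 FC of an enzyme reversed. Those not called that did are given next. When a liver was left out, ethanol in WT gave -0.076 to 0.24 for *Acox2* and -0.26 to 0.11 for *Slc27a5*, ethanol in *Ahr* HKO gave -0.054 to 0.10 for *Cyp27a1* and -0.75 to 0.20 for *Cyp7b1*, and the genotype on ethanol gave -0.16 to 0.94 for *Cyp8b1*, -0.0097 to 0.30 for *Acox2* and -0.070 to 0.31 for *Slc27a5*. With limma on log2(FPKM + 1) and on log2(FPKM + 0.1), *Slc27a5* was at 0.11 and 0.11 for ethanol in WT, *Cyp27a1* at -0.051 and -0.051 for ethanol in *Ahr* HKO, and the genotype on ethanol gave -0.058 and -0.059 for *Amacr*, -0.10 and -0.10 for *Acox2*, -0.13 and -0.13 for *Slc27a5* and -0.15 and -0.15 for *Baat*. With quantile normalization *Cyp27a1* was at -0.15 for ethanol in *Ahr* HKO, and *Slc27a5* at -0.023 and *Baat* at -0.046 for the genotype on ethanol. Without quantile normalization the median of all tested genes moved to -0.13 (pseudocount 1) and -0.21 (0.1) for the genotype on ethanol, to -0.14 and -0.24 for the interaction and to 0.10 and 0.16 for ethanol in WT, and the share of calls that were higher went from 64.4% to 18.6%, from 50.2% to 23.4% and from 48.6% to 79.6% with a pseudocount of 1. Over all tested genes DESeq2 called 1189 higher and 1146 lower for ethanol in WT, against 595 and 629 with edgeR, and 714 and 797 against 96 and 53 for the genotype on ethanol.

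The replicate numbers did not pair the livers. Of 18 pairs with the same number 2 had a correlation of deviations over 0.1 (range -0.10 to 0.22), and in 36 matches of a liver with another group the best match had the same number in 10. A replicate block gave 2, 4, 1, 3 and 4 called enzymes for ethanol in WT, the genotype on the control diet, the genotype on ethanol, ethanol in *Ahr* HKO and the interaction, against 3.84%, 21.1%, 1.76%, 21.2% and 19.6% of all tested genes. The spread between 3 livers, not the depth, limits these results.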
